A study of Rattus norvegicus with 8 samples.

Results

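The miR-199a and miR-214 hairpins lie side by side on rat chromosome 13 and give 4 annotated mature miRNAs. These are rno-miR-199a-5p, rno-miR-199a-3p, rno-miR-214-3p and rno-miR-214-5p, and they were taken by their rat names from a deposited small RNA count table of exosomes. Of the 4 names, 3 had a row each in the table, out of 1273 mature names in all and 415 with rat names. rno-miR-214-5p had 0 rows. Exosomes are membrane vesicles secreted by cells, here by cells of the rat intervertebral disc. There were 4 libraries from nucleus pulposus cells (NPC), found in the soft centre of the disc, and 4 from nucleus pulposus progenitor cells (NPPC). Neither group carried a named treatment or genotype, and the labels gave no strain, age, passage, culture or animal. Replicates may therefore be technical, and each p-value reflects no more than how these libraries scatter.

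As background, both hairpins are cut from one long transcript that runs antisense to Dnm3, a dynamin gene, and that is switched on by Twist1 in mesenchymal cells. The transcript is abundant in fibroblasts, chondrocyte precursors and other connective tissue cells. A mature miRNA finds its target mRNAs mainly through its seed, bases 2 to 8, and each hairpin can release a miRNA from its 5′ arm (5p) and its 3′ arm (3p). miR-199a-5p is known to repress Hif1a and Cav1, miR-199a-3p to repress Mtor and Met, and miR-214-3p to repress Ezh2 and Atf4.

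The mature sequences of the 4 names are shown from RefSeq (build GRCr8), with the seed in capitals, because the arms of each hairpin differ in seed and because the rat name without a row has an annotated sequence unlike the arm that was counted.
rno-miR-199a-5p: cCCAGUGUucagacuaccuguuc
rno-miR-199a-3p: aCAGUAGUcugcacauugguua
rno-miR-214-3p: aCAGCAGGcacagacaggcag
rno-miR-214-5p: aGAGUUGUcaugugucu
In GRCr8 they lie on the plus strand of chromosome 13, at chr13:77116255-77116277, chr13:77116294-77116315, chr13:77121713-77121733 and chr13:77121656-77121672 in this order. Both hairpin genes, Mir199a2 and Mir214, fall inside the span of Dnm3 (chr13:76892381-77371346), which is on the minus strand. In the deposited table, whose build is not given in the sources used here, 5308 bases separate the hairpins.

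The hairpins as the deposited table gives them are shown next, with the sequenced arms in capitals, since they show where the counted 5′ arm of miR-214 lies.
mir-199a hairpin: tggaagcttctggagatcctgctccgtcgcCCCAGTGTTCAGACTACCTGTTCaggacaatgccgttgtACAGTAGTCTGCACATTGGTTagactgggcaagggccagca
mir-214 hairpin: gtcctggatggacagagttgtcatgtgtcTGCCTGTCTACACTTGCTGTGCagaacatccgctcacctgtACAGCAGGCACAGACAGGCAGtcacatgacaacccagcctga
The 17-base RefSeq sequence of rno-miR-214-5p spans bases 14 to 30 of the 112-base mir-214 hairpin. The 5′ arm that was counted spans bases 30 to 51 and overlaps the RefSeq sequence by 1 base. The table lists this arm at the same rat hairpin under its mouse name, mmu-miR-214-5p, with the sequence below, and its values are given here as the miR-214 5p arm beside the 3 members.
mmu-miR-214-5p: tGCCTGTCtacacttgctgtgc
It is outside the rule that chose the members and was added after the table had been seen.

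Other rows named after these families show how completely the members hold their reads. Together the 3 members held between 98.4% and 98.8% of the counts under any miR-199, miR-214 or miR-3120 name in each library. The largest of the other rows was mmu-miR-199b-5p, from a hairpin that the table places on chromosome 3 and that has no rat name there. It has the same seed as miR-199a-5p and differs from it by 1 base, C10T, counted from the 5′ end with miR-199a-5p first.
mmu-miR-199b-5p: cCCAGTGTttagactacctgttc
The 3p arm does not separate the 2 hairpins: the miR-199a-3p row, 1 base shorter at its 3′ end than RefSeq has it, occurs unchanged in the miR-199b hairpin. Its counts therefore hold reads of both hairpins in unknown proportion. The row of miR-3120, which is read from the opposite strand of the mir-214 hairpin and mirrors its 5p arm, had 6 counts in NPC replicate 2 and was listed at 0 in the other 7 libraries. Of the counts in rows sharing a seed, miR-199a-5p held 97.4% and miR-199a-3p 99.9%, and 0 other names shared the seed of miR-214-3p or of the miR-214 5p arm.

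The libraries held 329011 to 1416940 counts, with every NPPC library deeper than every NPC library. NPC replicate 1 stood apart, with a TMM scaling factor (edgeR's correction for differences in composition) of 1.64 against 0.871 to 1.01 in the others. It lay at -39.2 on the first principal component, and the others between -10.1 and 12.0. Marker miRNAs of other cell types were scarce. Epithelial markers (8 of 10 with a row, miR-141-3p and miR-429 without) summed to 0.0106% to 0.0134% of counts in NPC and 0.0110% to 0.0199% in NPPC libraries. Leukocyte markers (4 of 5 under rat names) summed to 0.00547% to 0.0336% and 0.0323% to 0.0416%. With miR-223-3p, listed under its mouse name alone, the ranges were 0.00547% to 0.0459% and 0.0378% to 0.0472%. Neural markers (4 of 4) summed to 0.131% to 0.196% and 0.186% to 0.228%. The mesenchymal list summed to 18.7% to 23.2% in NPC and 15.9% to 17.8% in NPPC libraries. Of its 5 names, 3 are the members themselves. Erythrocyte, endothelial and muscle lists, with all names present, stayed at or below 0.129% under rat names and 0.148% with rows of other species. Whether these markers had a part in the results was not tested.

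The 3 members were abundant in exosomes of both cell types. Their summed share of the library was 17.5%, 14.1%, 13.6% and 13.9% in NPC replicates 1 to 4 and 13.0%, 13.2%, 12.6% and 12.3% in NPPC replicates 1 to 4. The NPC mean was 14.8% ± 1.82 (SD, n = 4) and the NPPC mean 12.8% ± 0.451 (SD, n = 4), and every NPC library lay above every NPPC library. On the TMM scale, which changes the weight of NPC replicate 1, the summed CPM (counts scaled to a common library size) overlapped between groups, with 107391 in NPC replicate 1, 144455 to 156965 in the other NPC libraries and 129129 to 142852 in NPPC libraries. The separation of the groups was thus seen on 1 of the 2 scales, and no test was made of the sum. How many other names separate as a share of counts was not determined. With total count scaling the median log2 fold change (NPPC over NPC) over all 390 names tested was -0.29.

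miR-199a-5p took 12.0%, 6.59%, 5.71% and 6.70% of counts in NPC replicates 1 to 4 and 6.19%, 5.58%, 6.00% and 5.58% in NPPC replicates 1 to 4. It was the most abundant name of all in NPC replicate 1, where miR-21-5p, at 34012 CPM, also lay below miR-27b-3p, at 48777 CPM. In every NPPC library miR-199a-5p had rank 3. The Wilson 95% interval of any library's share of a member reached at most 0.111 percentage points to either side, counting error only. In TMM-scaled CPM its levels were 73766, 67464, 65709.8 and 69384 in NPC and 61348, 60224, 67385 and 63569 in NPPC libraries. On this scale all 8 libraries were close together, and NPPC replicate 3 alone of its group reached into the NPC range.

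**Figure D1:**
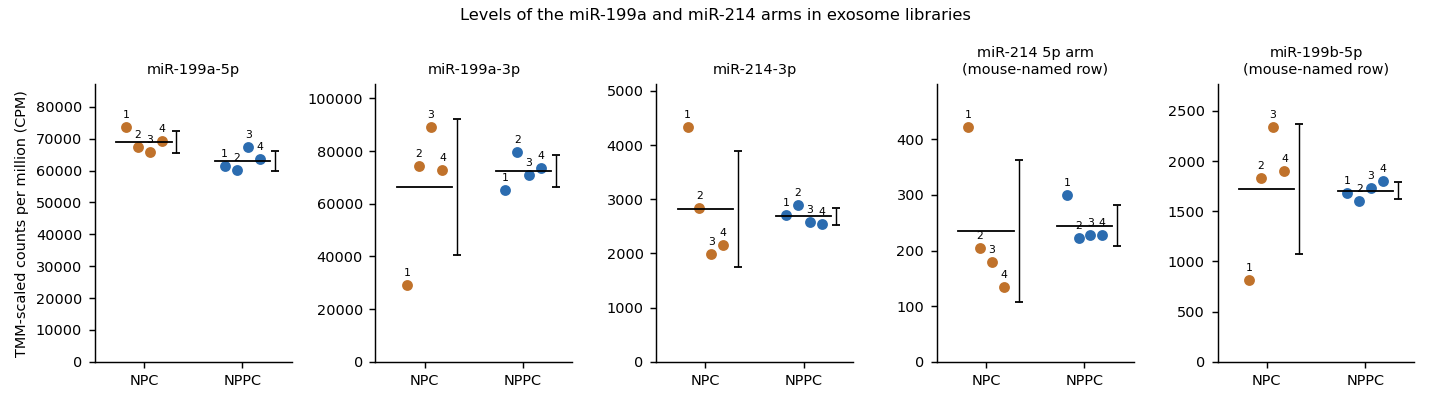
TMM-scaled CPM of the 3 members, the miR-214 5p arm and miR-199b-5p in the 8 exosome libraries, NPC in orange and NPPC in blue, with replicate numbers beside the points, the group mean as a line and 1 SD as a bar. NPC replicate 1 is lowest for miR-199a-3p at 29287 CPM and highest for miR-214-3p at 4338 CPM, while its miR-199a-5p level of 73766 CPM is close to the others.

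The steadiness of miR-199a-5p depended on the scaling. Within the NPC group its coefficient of variation (CV, the SD as a percentage of the mean) was 5.02% on the TMM scale, where 1 of 210 names with a mean of at least 100 CPM had a smaller CV and the median was 38.4%. It was 4.57% on the authors' scale and 37.2% as a share of counts. Within the NPPC group it was 5.00% on the TMM scale, with 22 of the 210 names lower and a median of 12.0%.

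miR-199a-3p, from the other arm of the same hairpin, took 4.78%, 7.26%, 7.76% and 7.04% of counts in NPC replicates 1 to 4 and 6.57%, 7.39%, 6.33% and 6.45% in NPPC replicates 1 to 4. It had rank 2 among all names in 7 libraries and rank 6 in NPC replicate 1. Its levels were 29287, 74321, 89263 and 72922 CPM in NPC and 65064, 79730.1, 71052 and 73533 CPM in NPPC libraries. NPC replicate 1 lay below the other 7 libraries on both scales, and the remaining libraries of the 2 groups overlapped.

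miR-214-3p was far less abundant, with 1115 to 2330 counts in NPC and 2248 to 3250 counts in NPPC libraries. Its levels were 4338, 2830.2, 1992 and 2149.7 CPM in NPC and 2717, 2898, 2576 and 2539.9 CPM in NPPC libraries. The NPPC libraries had a CV of 6.06% and lay inside the NPC range. In NPC libraries replicate 1 was highest and replicate 3 lowest.

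The miR-214 5p arm had 227, 124, 106 and 70 counts in NPC replicates 1 to 4 and 248, 225, 287 and 262 in NPPC replicates 1 to 4. Its levels were 423, 205, 179 and 135 CPM in NPC and 299.7, 223, 227 and 228 CPM in NPPC libraries. The library numbered 1 was highest in each group, and in CPM the other 3 NPC libraries lay below all 4 NPPC libraries. This order appears only with NPC replicate 1, the highest of all 8, set aside. As a share of counts NPC replicate 2, at 0.0201%, lay above NPPC replicate 4, at 0.0200%. How many other names show such an order was not determined. miR-199b-5p, the paralogue of miR-199a-5p, had 812, 1832, 2343 and 1897 CPM in NPC and 1679, 1603, 1731 and 1803 CPM in NPPC libraries. Its NPC replicate 1 was lowest of all 8, as for miR-199a-3p and unlike miR-199a-5p.

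Counts summed per mature name were then compared between NPPC and NPC exosomes in edgeR (quasi-likelihood, two-sided; Benjamini-Hochberg over 390 names). Such counts are relative to the library, so neither vesicle number nor the amount of a miRNA per vesicle can be read from them. Of the 3 members 0 passed at an adjusted p under 0.05, where 1 name, 0.256% of all tested, did: miR-146a-5p, outside this cluster. That count fell to 0 when any 1 library other than NPC replicate 1 was left out. At an unadjusted p under 0.05 the counts were 0 of 3 members and 10.5% of all names, and the CPM of 0 of 3 members and of 10.8% of all names did not overlap between the groups. The members' median log2 fold change (NPPC over NPC) was -0.076, against -0.038 over all names tested. The largest of the 3 in size was 0.13, and 13.8% of all names tested were at or under that size.

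The log2 fold change of miR-199a-5p was -0.13 ± 0.11 (SE), with a 95% interval from -0.37 to 0.11 and an edgeR adjusted p of 0.596. This was the narrowest interval of the 4 arms. That of miR-199a-3p was 0.12 ± 0.30 (SE), with an interval from -0.57 to 0.81 and an edgeR adjusted p of 0.858. miR-214-3p had -0.076 ± 0.25 (SE), an interval from -0.65 to 0.50 and an edgeR adjusted p of 0.884. The miR-214 5p arm had 0.054 ± 0.36 (SE), an interval from -0.77 to 0.88 and an edgeR adjusted p of 0.948. All 4 intervals include 0, and their width means that these values do not show equal levels.

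Without NPC replicate 1 the log2 fold change of miR-199a-3p turned to -0.11 and that of miR-214-3p to 0.22, with edgeR adjusted p of 0.554 and 0.386. That of the miR-214 5p arm grew to 0.51, with an unadjusted edgeR p of 0.0345 and an adjusted p of 0.205, and that of miR-199a-5p was -0.086. In that fit 86 of the 427 names tested had an unadjusted edgeR p under 0.05. With total count scaling miR-199a-5p had -0.41 and miR-214-3p -0.46, with edgeR adjusted p of 0.457 and 0.545. On that scale the median over all names was -0.29, against -0.038 with TMM factors.

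**Figure D2:**
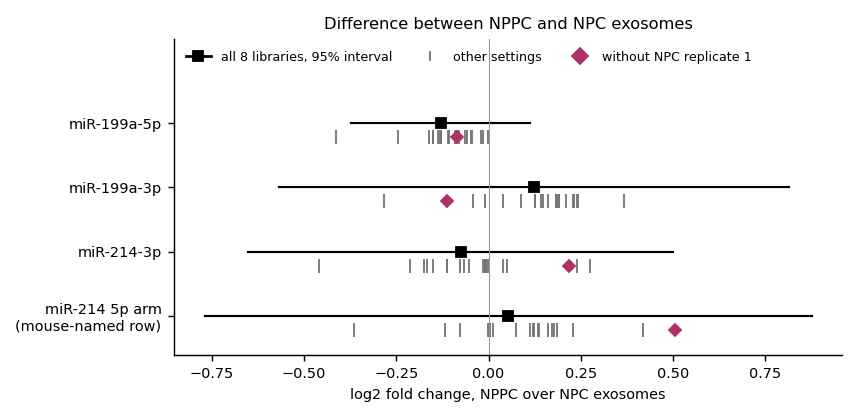
Log2 fold change of NPPC over NPC exosomes for the 3 members and the miR-214 5p arm, with squares and lines for the fit on all 8 libraries and its 95% interval, ticks for the other settings tried and diamonds for the fit without NPC replicate 1. Every interval includes 0, and leaving out NPC replicate 1 moves miR-199a-3p to -0.11 and miR-214-3p to 0.22.

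The arms of each hairpin were compared within libraries, where no scaling between libraries is needed. The 5p and 3p rows of miR-199a had similar counts in 7 libraries. Reads of the 3p row cannot be told apart from those of the miR-199b hairpin. The count ratio of 5p to 3p was 2.52, 0.908, 0.736 and 0.951 in NPC replicates 1 to 4 and 0.943, 0.755, 0.948 and 0.864 in NPPC replicates 1 to 4. In 7 libraries 3p was thus slightly ahead, and in NPC replicate 1 5p was ahead. The log2 ratio averaged 0.17 ± 0.79 (SD, n = 4) for NPC and -0.19 ± 0.15 (SD, n = 4) for NPPC. The difference was -0.36 (exact permutation test, two-sided, p = 0.571; adjusted p = 0.857 by Benjamini-Hochberg over 3 ratios). Without NPC replicate 1 the difference was 0.024.

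The miR-214 hairpin was strongly biased to its 3p arm, which had between 9.06 and 15.9 times the counts of the 5p arm in every library. The log2 ratio of 5p over 3p averaged -3.65 ± 0.29 (SD, n = 4) for NPC and -3.47 ± 0.22 (SD, n = 4) for NPPC. The groups overlapped, and the exact permutation p was 0.400 (adjusted p = 0.857). Relative to miR-214, miR-199a had 21.6, 46.7, 71.4 and 62.3 times the counts, both arms summed, in NPC replicates 1 to 4 and 41.9, 44.9, 49.4 and 49.5 times in NPPC replicates 1 to 4. The mean log2 ratio of miR-199a over miR-214 was 5.53 ± 0.77 (SD, n = 4) and 5.53 ± 0.12 (SD, n = 4), with an exact permutation p of 1.0. The ratio spread over a much wider range in NPC than in NPPC libraries, and both ends of the range were NPC libraries. The smallest p that 70 arrangements can give is 0.0286.

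**Figure D3:**
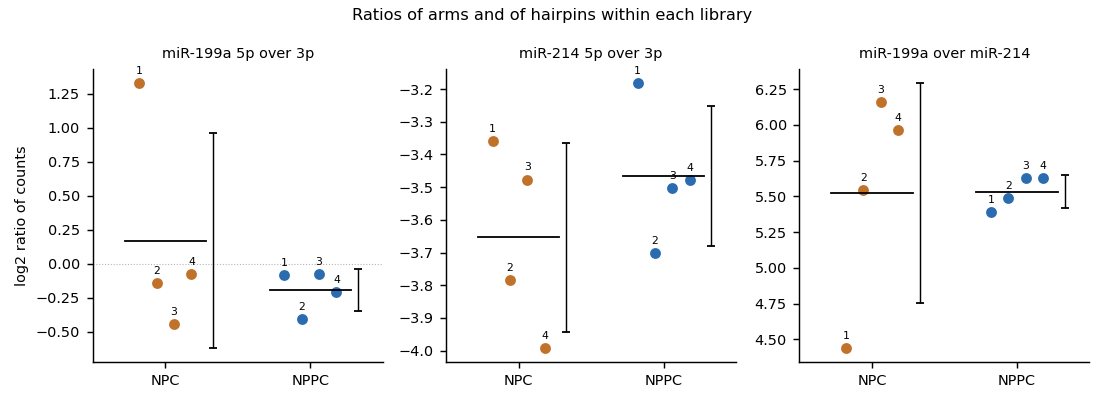
Log2 ratios of counts in each library, NPC in orange and NPPC in blue, for the arms of miR-199a, the arms of miR-214 and miR-199a over miR-214 (both arms summed), with the group mean as a line, 1 SD as a bar and replicate numbers beside the points. NPC replicate 1 has the highest miR-199a arm ratio, 1.33, and the lowest ratio of miR-199a over miR-214, 4.44.

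The arm balance of both hairpins was set beside that of other rat hairpins, as a description. Of 84 hairpins with a mean of at least 10 counts in each arm, the less abundant arm held a median of 10.2% of the counts. These shares were taken over counts summed across the 8 libraries, so deeper libraries weigh more. In mir-199a it held 48.0%, and 1 hairpin, mir-423, was more even. Library by library it held 28.4% in NPC replicate 1, where 5p led and 15 hairpins were more even, and 42.4% to 48.8% in the others, where 0 to 5 were. In mir-214 it held 8.05%, and 46 of the 84 were more even. The arms were within 2-fold of each other in 19 hairpins, 22.6%. By total counts mir-199a had rank 2 of the 84 and mir-214 rank 32. The 3p counts of mir-199a also hold reads of the miR-199b hairpin. On the 5p side, where the hairpins can be separated, miR-199b-5p was 1.09% of the 5p counts of miR-199a and miR-199b together in NPC replicate 1, 2.64% to 3.44% in the other NPC libraries and 2.50% to 2.76% in NPPC libraries. Arm ratios did not overlap between the groups in 10.7% of the 84 hairpins and in 0 of these 2.

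On the TMM scale NPC replicate 1 differed from the other NPC libraries in miR-199a-3p and in both arms of miR-214. The GC content of each arm is given beside its level. As a share of counts this library also differed in miR-199a-5p, at 12.0% against 5.71% to 6.70%. Against the mean of the other NPC libraries on the log2 CPM scale, it held 0.373 times the level of miR-199a-3p (42.9% GC), 1.09 times that of miR-199a-5p (52.2% GC), 2.46 times that of the miR-214 5p arm (54.5% GC) and 1.89 times that of miR-214-3p (61.9% GC). miR-199b-5p, which differs from miR-199a-5p by the 1 base named above (47.8% GC), stood at 0.404 times. Over the 210 names with a mean of at least 100 CPM, which share these 4 libraries, the Spearman correlation of GC percent with this log2 ratio was 0.75. Of these names 119 had a log2 ratio between those of miR-199a-3p and miR-214-3p. Over the 84 hairpins the correlation of the GC difference of the arms with the shift in arm ratio in NPC replicate 1 was 0.580. mir-199a shifted by 1.55 with a GC difference of 9.32 percentage points, while mir-214 shifted by 0.38 with a difference of -7.36, opposite in sign. The median size of shift over the 84 was 1.07. Shifts larger in size than that of mir-199a occurred in 29 hairpins and larger than that of mir-214 in 65. With a GC correction of all libraries the log2 fold change of NPPC over NPC was -0.00022 for miR-199a-5p, -0.28 for miR-199a-3p, 0.28 for miR-214-3p and 0.23 for the miR-214 5p arm, with edgeR adjusted p between 0.415 and 0.999. The lowest of these was that of miR-199a-3p, whose direction turned and whose unadjusted edgeR p was 0.00744. Under this correction 31 of the 390 names tested had an unadjusted edgeR p under 0.05.

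**Figure D4:**
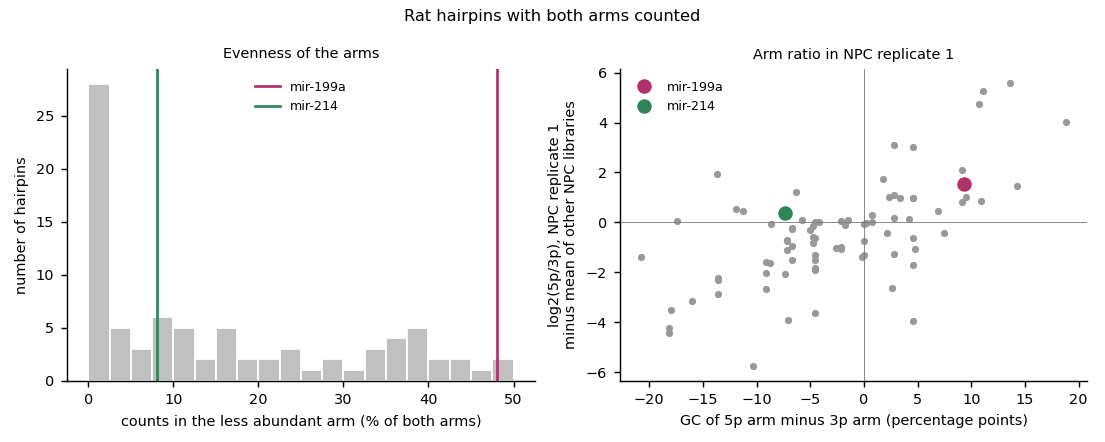
Left, histogram of the share of counts in the less abundant arm over 84 rat hairpins, with mir-199a at 48.0% and mir-214 at 8.05% marked as lines. Right, the shift of each hairpin's log2 arm ratio in NPC replicate 1 from the mean of the other NPC libraries against the GC difference of its arms, with mir-199a and mir-214 as large points.

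The members did not vary together over the 8 libraries. On log2 CPM the Pearson r was -0.64 between the arms of miR-199a and 0.87 between the arms of miR-214, and -0.87 between miR-199a-3p and miR-214-3p. Without NPC replicate 1 these were 0.056, 0.68 and -0.49. Among 165 other rat names with a mean of at least 100 CPM, the level most like miR-214-3p was that of miR-24-3p, a miRNA of the miR-23, miR-27 and miR-24 clusters, with r of 0.99 and 0.96 without NPC replicate 1. miR-484 and miR-652-3p followed at 0.93 and 0.91. The levels most like miR-199a-3p were those of miR-10a-5p, miR-542-3p and miR-101a-3p at 0.98 each, which fell to 0.74, 0.71 and 0.64 without NPC replicate 1. Those most like miR-199a-5p were miR-351-5p, miR-25-3p and miR-92a-3p at 0.88, 0.85 and 0.83. For the miR-214 5p arm they were miR-652-3p, miR-181a-5p and mir-3102-p3 at 0.92, 0.92 and 0.90. All points share the 8 libraries and their scaling, so these are descriptions of likeness with no test.

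Other miRNAs known from fibroblasts, smooth muscle and mesenchymal progenitors were read from a list of 24 names, of which 22 passed the filter on low counts. The other 2, miR-29c-3p and miR-195-5p, had at most 16 and 13 counts in any library. By edgeR 0 of the 22 passed at an adjusted p under 0.05, the lowest being 0.380. At an unadjusted p under 0.05 there were 3, miR-221-3p, miR-218a-5p and miR-503-5p, with log2 fold changes of 0.31, 1.04 and -0.71. Over all 390 names 10.5% were at such a p and 10.8% did not overlap between groups, and the list is not set apart from them by a test. The log2 fold change was positive in 12 and negative in 10, with a median of 0.052, and the groups did not overlap in 4. The most abundant was miR-21-5p, an abundant miRNA of stromal cells, with 0.53 ± 0.55 (SE). miR-27b-3p had -0.044 ± 0.14 (SE), miR-143-3p, a smooth muscle miRNA, -0.19 ± 0.19 (SE), and miR-125b-5p 0.10 ± 0.13 (SE). The log2 level of NPC replicate 1 against the mean of the other NPC libraries was -3.06 for miR-21-5p (39.1% GC) and -1.42 for miR-199a-3p.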

How the data were processed

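Small RNA from exosomes was sequenced in 8 libraries, 4 per group. Per the labels' protocols, RNA came from an exosome RNA kit and libraries from a TruSeq kit. The submitters' processing notes name CASAVA 1.8. The genome build, the aligner and the miRBase version were not given in the sources. The table that the authors deposited has 1512 rows, with estimated counts and a scaled signal. The scaled signal was used for its factor per library and for the spread of levels on the authors' scale. Counts were summed per mature name and rounded, then tested with edgeR 4.0.16 in R 4.3.3 (TMM factors, filterByExpr, quasi-likelihood test, group as the only term, Benjamini-Hochberg over all 390 names kept). log2 CPM used a prior count of 2. For ratios an exact permutation test, two-sided, was used (Python 3.11.15, scipy 1.17.1).

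Alternatives were DESeq2 size factors, total count and upper-quartile scaling, 2 other filters, DESeq2 1.42.0, limma-voom (limma 3.58.1), a replicate block, single rows, sums per sequence, rat names alone, a GC correction (loess, span 0.75), libraries left out, and, added after the data were seen, the authors' scaling and family sums. The edgeR script was tested on simulated data with 361 names. At an edgeR adjusted p under 0.05 it called 34.8% of 92 names given a 2-fold change. It called 80.6% of 93 given a 4-fold change and 2.27% of 176 left unchanged. Deviations from the group mean correlated between same-numbered libraries (r = 0.565, 0.116, 0.366 and 0.243 for replicates 1 to 4). The NPPC library most like it had the same number for NPC replicates 1 and 3, and another number for replicates 2 and 4. The labels state no pairing, so the block was read as a possible pairing only. The named miRNAs were the members, other rows of the same families, the 3 names most like each member, and the 4 most abundant members of the mesenchymal list with any past the threshold; the 3 at an unadjusted p under 0.05 were added after their values were seen. The members and lists were chosen with earlier results of these data known. Sequences are from RefSeq (GRCr8), where all 4 names matched, and the deposited table.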

Additional observations from a re-analysis of the deposited data

Results flagged for a closer look

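A library stood far from the rest of its group in 4 of the 26 sets of values looked at. Chance alone would flag a single set about 1 time in 20. The sets share libraries and names, so the 4 cannot be weighed against that rate. NPC replicate 1 held 12.0% of its counts as miR-199a-5p (others 5.71% to 6.70%) and 0.0690% as the miR-214 5p arm (others 0.0130% to 0.0201%). NPPC replicate 1 stood apart for the miR-214 5p arm on both scales, at 299.7 CPM (others 223 to 228) and 0.0302% of counts (others 0.0200% to 0.0206%). On the TMM scale miR-199a-5p in NPC replicate 1 did not stand apart, at 73766 CPM (others 65709.8 to 69384).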

How the results depend on the processing

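The log2 fold change of miR-199a-5p stayed negative in all 22 alternatives, from -0.41 to -0.00022, and no alternative brought any of the 4 arms past the threshold; the lowest adjusted p was 0.197, for the miR-214 5p arm with neither library numbered 1. Directions that turned are as follows, and the cause was not tested. miR-199a-3p turned to -0.0082 with total count scaling, -0.28 with the GC correction and -0.043 with neither library numbered 1. miR-214-3p turned to 0.040 with no filter, 0.051 with single rows, 0.28 with the GC correction, 0.24 with neither library numbered 1 and 0.00058 with the authors' scaling. The miR-214 5p arm turned to -0.077 with upper-quartile factors and to -0.36 with total count scaling; with rat names only it has no value. miR-199b-5p (-0.014) turned to 0.042 with upper-quartile factors, 0.099 with no filter, 0.0051 with the 10 CPM filter, 0.082 with limma-voom, 0.072 with single rows, 0.047 with sums per sequence and 0.052 with the authors' scaling.

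With a library left out miR-199a-3p ran from -0.11 (without NPC replicate 1) to 0.37, miR-214-3p from -0.17 to 0.22 (without NPC replicate 1), the miR-214 5p arm from -0.12 to 0.51 (without NPC replicate 1) and miR-199b-5p from -0.24 (without NPC replicate 1) to 0.24. The difference in arm ratio of miR-199a ran from -0.57 to 0.024 (without NPC replicates 3 and 1), and that of miR-199a over miR-214 from -0.35 to 0.22 (without NPC replicates 1 and 3). With the replicate block miR-199b-5p was 0.078, and the 4 arms had -0.13, 0.23, -0.0053 and 0.18 in the order of the report, with no call changed among them. Names past the adjusted threshold were 1 in all, 0 with the replicate block, 0 with single rows, 0 without any 1 library other than NPC replicate 1 and 1 without that library, 7 with the DESeq2 Wald test, 8 with no filter and 42 with neither library numbered 1, none of them a member. Depth limits the miR-214 5p arm most, at 70 to 287 counts.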
